A study of Mus musculus with 2 samples.

Results

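The genes described here encode the nuclear-encoded subunits of oxidative phosphorylation, measured in thymocytes of wild-type mice and of null mice, which carry an inactivated copy of the studied gene on both chromosomes. Members were taken by their symbol in the platform annotation, which had to begin with Ndufa, Ndufb, Ndufc, Ndufs, Ndufv, Uqcr, Atp5 or Cox4 to Cox8, or be Sdha, Sdhb, Sdhc, Sdhd or Cyc1. Assembly factors were left out. This gave 82 genes, measured by 84 features, of 16504 genes with a symbol. Of the 82, 35 belong to complex I, 4 to complex II, 9 to complex III, 17 to complex IV and 17 to complex V. Thymocytes are the developing T cells of the thymus; the samples' source is labelled thymus and their description names thymocytes. RNA of 3 mice was pooled for each genotype, and the same pair of pools was hybridised to 2 arrays with the dyes exchanged. One array held the null pool in the red dye Cy5 and the wild-type pool in the green dye Cy3, and the other held them the opposite way. There is therefore 1 pool per genotype, differences between mice were not measured, and no test across samples could be run.

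Oxidative phosphorylation makes most of the ATP of respiring cells in the inner mitochondrial membrane. Complex I takes electrons from NADH and complex II takes them from succinate. Both pass them to ubiquinone, complex III moves them on to cytochrome c, and complex IV hands them to oxygen. The proton gradient built by complexes I, III and IV turns complex V, the ATP synthase. All members are nuclear genes, while a few further subunits of complexes I, III, IV and V are encoded in mitochondrial DNA. In the thymus, proliferating thymocytes and the small resting thymocytes that follow them differ in their demand for mitochondrial ATP.

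Values are log2 ratios of null over wild type, first on the array with null in Cy5, then on the array with null in Cy3, and each SD is the technical spread between these 2 arrays. The direction is likely, not stated in a file, and rests on the dye labels and on minus signs carried by the zeros of the second column. The file holds ratios only, so the level of a gene in either pool, its signal over background, and the presence of thymocyte markers in the samples could not be examined. A gene was called when it differed at least 1.5-fold, or 0.58 in log2, to the same side on both arrays. In bulk RNA, a different share of a cell type and a different amount of RNA per cell cannot be told apart.

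Subunit genes of all 5 complexes lay above 0 in the null pool, each by a small amount. Of the 82 members, 62 (75.6%) lay above 0 on both arrays, against 25.0% of all 16504 genes. Ndufs4 and Cox7b2 alone lay below 0 on both arrays, where again 25.0% of all genes did, and 18 members lay on opposite sides. The median member stood at 0.31 with null in Cy5 and at 0.22 with null in Cy3. The median of the means of both arrays was 0.32, while the median of all genes was 0.00093. In all, 60 of the 82 members (73.2%) lay within the highest 10% of all genes by this mean, which began at 0.22. The members' means spread with an SD of 0.16 around their own mean, less than the SD of 0.22 over all genes. For each gene, the distance of its ratio with null in Cy5 from its mean over both arrays was also taken, with its sign. These distances had an SD of 0.216 over members and 0.176 over all genes, so the arrays disagreed more for members. The smaller SD of the members' means therefore does not show closer agreement between the arrays.

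No member passed the 1.5-fold rule in either direction. The rule called 0.412% of all genes higher and 1.11% lower, so a count of 0 among 82 genes is close to the background and is no result about them. At a lower limit of 0.32 in log2 on both arrays, 9 members were higher and none was lower, against 2.29% and 2.90% of all genes. These 9 are Atp5g1, Atp5g2, Cox5b, Ndufa12, Cox8b, Ndufab1, Uqcrq, Uqcrfs1 and Uqcr10. The nearest to the rule was Atp5g1, whose smaller ratio was 0.52, a 1.44-fold difference. The result for these genes is a common small displacement, and no single subunit gene stood out by the size rule.

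**Figure D1:**
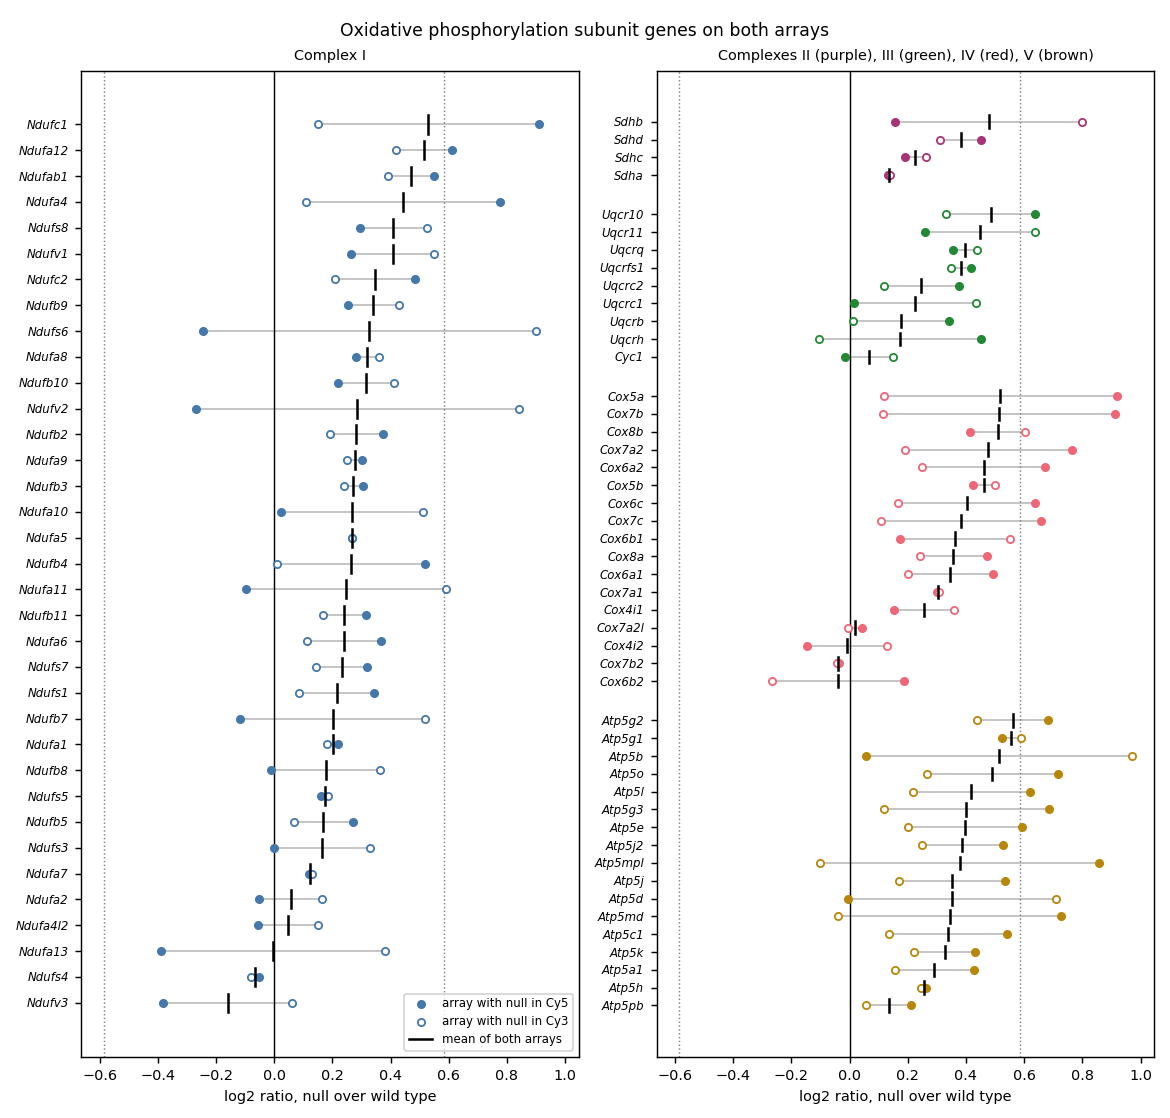
Log2 ratio of null over wild type for each of the 82 subunit genes, by complex. Filled points are the array with null in Cy5, open points the array with null in Cy3, black ticks their mean, grey lines join the 2 arrays, and dotted lines mark 1.5-fold. Most ticks lie right of 0, and no gene has both points beyond the same dotted line.

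Complex I, the NADH dehydrogenase, had a median of 0.26 (0.26 and 0.24 on the arrays), and 24 of its 35 genes lay above 0 on both arrays. Among the 6 measured core genes, whose proteins are conserved in the bacterial enzyme, 4 lay above 0 on both arrays and none below. Ndufv1, which binds NADH, stood at 0.26 and 0.55, and Ndufs8, an iron-sulphur subunit, at 0.29 and 0.53. Ndufs7 stood at 0.32 and 0.15, and Ndufs1, the largest subunit of the complex, at 0.34 and 0.09. These 4 core genes were above 0 on each array with values that overlap one another. Ndufv2 and Ndufs3 were not, since they lay at or below 0 with null in Cy5 (-0.27 and -0.002) and at 0.84 and 0.33 with null in Cy3.

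The highest complex I genes were accessory. Ndufc1, a small membrane-arm subunit, stood at 0.91 and 0.15 with a mean of 0.53 (SD 0.54). Ndufa12 stood at 0.61 and 0.42, with a mean of 0.51 (SD 0.14), a 1.43-fold difference. Ndufab1, the mitochondrial acyl carrier protein, which also serves fatty acid and lipoate synthesis, stood at 0.55 and 0.39 (mean 0.47, SD 0.11). Ndufa12 and Ndufab1 were thus high on both arrays, while Ndufc1 was high mainly with null in Cy5. At the other end, Ndufv3 stood at -0.38 and 0.06 (mean -0.16, SD 0.31), the lowest mean of all 82 members. Ndufs4, an accessory subunit whose loss in mice causes a mitochondrial encephalopathy, stood at -0.05 and -0.08 (mean -0.07, SD 0.02). Ndufa13, also known as Grim19 and tied to cell death, stood at -0.39 and 0.38, which cancel to a mean of -0.0049. The only complex I gene lower on both arrays was therefore Ndufs4, with 2 values close to 0.

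By symbol class, 10 of 14 Ndufa genes and 7 of 9 Ndufb genes lay above 0 on both arrays, with medians of 0.26 and 0.26. Of 7 Ndufs genes, 4 did (median 0.21). Of 3 Ndufv genes, 1 did (median 0.29, though -0.27 and 0.55 on the arrays). Several accessory genes had close values on both arrays. Ndufa5 stood at 0.27 on both arrays, Ndufa9 at 0.30 and 0.25, Ndufb3 at 0.31 and 0.24, and Ndufa8 at 0.28 and 0.36. Ndufb4 stood at 0.52 and 0.01; close copies of it exist in the mouse genome, so its feature may bind more than 1 transcript.

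Complex II, succinate dehydrogenase, also works in the citric acid cycle and has no subunit encoded in mitochondrial DNA. All 4 genes lay above 0 on both arrays, with a median of 0.30. Sdhb, the iron-sulphur subunit, stood at 0.16 and 0.80 (mean 0.48, SD 0.45). Sdha, the flavoprotein that oxidises succinate, stood at 0.13 and 0.14 (mean 0.14, SD 0.0051). The membrane anchors Sdhc and Sdhd stood at 0.19 and 0.26 and at 0.45 and 0.31. The anchors overlap the catalytic pair, and Sdhb was high mainly with null in Cy3.

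In complex III, the cytochrome bc1 complex, 7 of 9 genes lay above 0 on both arrays and the median was 0.25, below the medians of the single arrays (0.35 and 0.33). Uqcr10, a small subunit, was highest at 0.64 and 0.33 (mean 0.48, SD 0.22), followed by Uqcr11 at 0.26 and 0.64 and Uqcrq at 0.35 and 0.44. Uqcrfs1, the Rieske iron-sulphur protein, stood at 0.42 and 0.35 (mean 0.38, SD 0.05). Cyc1, cytochrome c1, which passes electrons to cytochrome c, was lowest at -0.02 and 0.15 (mean 0.07). The redox-active pair thus differed, with Uqcrfs1 above Cyc1 on each array. Uqcrh (0.45 and -0.10) and Uqcrb (0.34 and 0.01) completed the lowest 3 genes, and the core proteins Uqcrc1 and Uqcrc2 stood at 0.02 and 0.43 and at 0.38 and 0.12.

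Complex IV, cytochrome c oxidase, has a catalytic core made by mitochondrial DNA, and its nuclear subunits surround that core. Each of the 10 genes of the forms found in most tissues lay above 0 on both arrays (median 0.39, with 0.57 and 0.19 on the arrays). Cox5a stood at 0.92 and 0.12 and Cox7b at 0.91 and 0.12, the highest means of the complex (0.52 and 0.51, SD 0.57 and 0.56). Cox5b stood at 0.42 and 0.50 (mean 0.46, SD 0.05), and Cox4i1, the largest nuclear subunit, at 0.15 and 0.36. Cox5b was thus high on both arrays, whereas Cox5a and Cox7b were close to 0 with null in Cy3. Cox6c (0.64 and 0.17) and Cox7c (0.66 and 0.11) followed the pattern of Cox5a.

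Isoforms of other tissues were more mixed. Cox4i2, known from lung, stood at -0.15 and 0.13, against 0.15 and 0.36 for Cox4i1. The testis forms Cox6b2 (0.19 and -0.27) and Cox7b2 (-0.03 and -0.04) had means of -0.04 each. Their common counterparts Cox6b1 (0.17 and 0.55) and Cox7b lay above 0 on both arrays. The forms of heart and skeletal muscle did not lie near 0. Cox6a2 stood at 0.67 and 0.25, above Cox6a1 (0.49 and 0.20) on each array. Cox8b stood at 0.41 and 0.60 (mean 0.51, SD 0.13), a 1.42-fold difference, and Cox8a at 0.47 and 0.24. Cox7a1 stood at 0.30 and 0.31, and Cox7a2 at 0.76 and 0.19. Cox7a2l, which takes part in joining complexes III and IV into supercomplexes, stood at 0.04 and -0.0041. In complex I, Ndufa4, now counted as a complex IV subunit, stood at 0.78 and 0.11, and its paralog Ndufa4l2, known from hypoxia, at -0.06 and 0.15.

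The muscle forms of complex IV are also made in brown fat, so markers of both tissues are given beside them. Of 20 striated muscle markers, 4 were above 0 and 5 below it on both arrays, (median -0.0066), and none passed the rule. Of 8 brown fat markers other than Cox8b, 5 were above 0 on both arrays and none below it (median 0.10). Ucp1, the uncoupling protein of brown fat, passed the rule at 0.81 and 0.87 (mean 0.84, SD 0.04), and Elovl3, a fatty acid elongase, stood at 0.33 and 0.51. Cidea, a lipid droplet protein of brown fat, stood at -0.0066 and 0.0072, and the fat cell genes Adipoq and Plin1 at 0.09 and -0.04 and at 0.07 and 0.17. The part of brown fat in the values of Cox6a2, Cox7a1 and Cox8b was not tested.

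**Figure D2:**
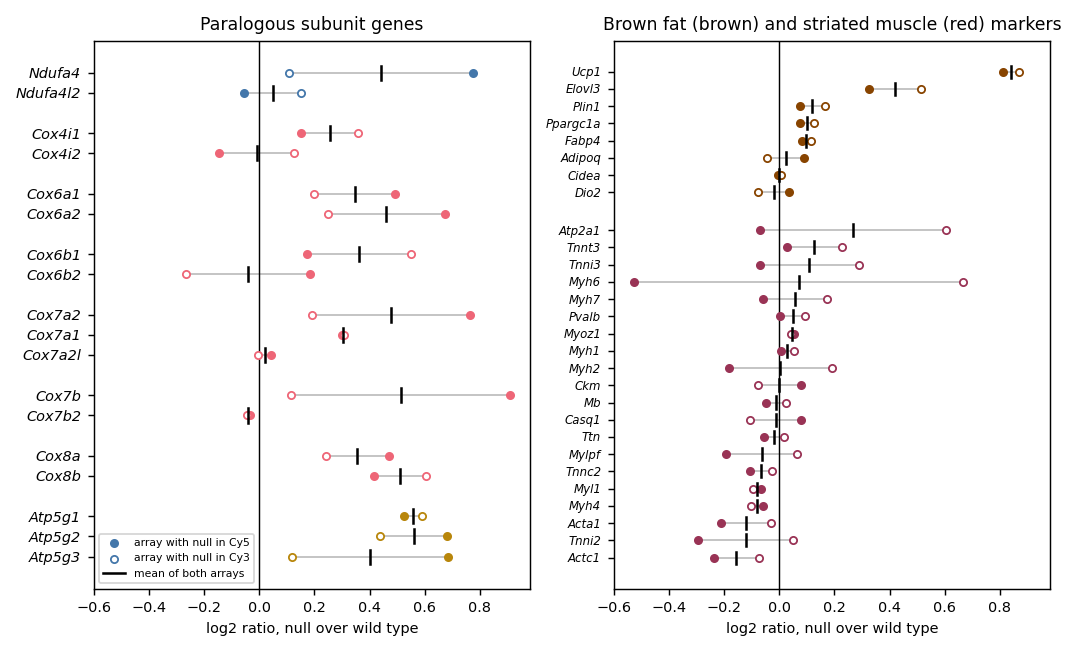
Left, log2 ratios of null over wild type for paralogous subunit genes; right, for markers of brown fat and striated muscle. Filled points are the array with null in Cy5, open points the array with null in Cy3, and black ticks their mean. Cox6a2, Cox7a1 and Cox8b lie above 0 on both arrays, as does Ucp1, while the muscle markers are spread around 0.

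Complex V, the ATP synthase, had the highest median at 0.38, and 14 of its 17 genes lay above 0 on both arrays and none below. The c ring, the rotor that protons turn, is encoded by 3 genes whose mature proteins are the same. Atp5g1 stood at 0.52 and 0.59 (mean 0.56, SD 0.05) and Atp5g2 at 0.68 and 0.44 (mean 0.56, SD 0.17). Atp5g3 stood at 0.69 and 0.12 (mean 0.40, SD 0.40). The means of Atp5g1 and Atp5g2 were the highest of all 82 members, at 1.47-fold each, and all 3 genes were above 0.5 with null in Cy5. Because these genes resemble one another, each feature may bind more than 1 of their transcripts.

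Of the 5 genes of the catalytic F1 part, 4 lay above 0 on both arrays. Atp5b, the catalytic beta subunit, stood at 0.06 and 0.97, the widest gap within complex V apart from Atp5mpl. Its partner alpha subunit Atp5a1 stood at 0.43 and 0.15, and the central stalk genes Atp5c1, Atp5d and Atp5e at 0.54 and 0.14, at -0.0052 and 0.71, and at 0.59 and 0.20. Atp5b and Atp5d were thus high with null in Cy3, and the other F1 genes with null in Cy5. Each of the 4 peripheral stalk genes lay above 0 on both arrays. Atp5o, which ties the stalk to F1, stood at 0.72 and 0.26, Atp5j at 0.53 and 0.17 and Atp5h at 0.26 and 0.25. Atp5pb was the lowest gene of the complex at 0.21 and 0.06. Its 2 features disagreed, with means of 0.35 and -0.08, so its value rests on which is used. The small membrane subunits Atp5l, Atp5j2 and Atp5k stood at 0.62 and 0.22, at 0.53 and 0.25, and at 0.43 and 0.22. Atp5md and Atp5mpl stood at 0.73 and -0.04 and at 0.86 and -0.10.

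The 5 complexes could not be ordered beyond the spread between the arrays. By the mean of both arrays their medians ran from 0.25 in complex III to 0.38 in complex V. With null in Cy5, complexes V (0.53) and IV (0.42) were highest and complexes III (0.35), I (0.26) and II (0.17) followed. With null in Cy3, complex III (0.33) was highest, then II (0.29), I (0.24), V (0.22) and IV (0.19). The order of complexes IV and V against complex I thus turned between the arrays, and no test of these differences was possible.

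The arrays were also read singly. With null in Cy5, 17 members were at least 1.5-fold higher, against 2.31% of all genes, and 13 of the 17 belong to complexes IV and V. With null in Cy3, 9 members were, against 2.92% of all genes. Across the 82 members the arrays correlated with Pearson's r = -0.30, where the value over all genes was 0.24; members share the same pools and dyes, so this is a description only. The arrays stood at least 1.5-fold apart for 14 members (17.1%), against 8.36% of all genes. Of these 14, 6 were higher with null in Cy5, namely Ndufc1, Ndufa4, Cox5a, Cox7b, Atp5md and Atp5mpl. The other 8 were higher with null in Cy3. They were Ndufs6 (-0.24 and 0.90), Ndufb7 (-0.12 and 0.52), Ndufa11 (-0.10 and 0.59), Ndufa13, Ndufv2, Sdhb, Atp5b and Atp5d. For Ndufs6, 2 features gave the same picture, with -0.27 and 0.76 for the first and -0.22 and 1.04 for the second. The gap between arrays holds dye and noise and no genotype difference. A dye effect of the same size on both arrays cancels in the mean of a gene, while noise does not.

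**Figure D3:**
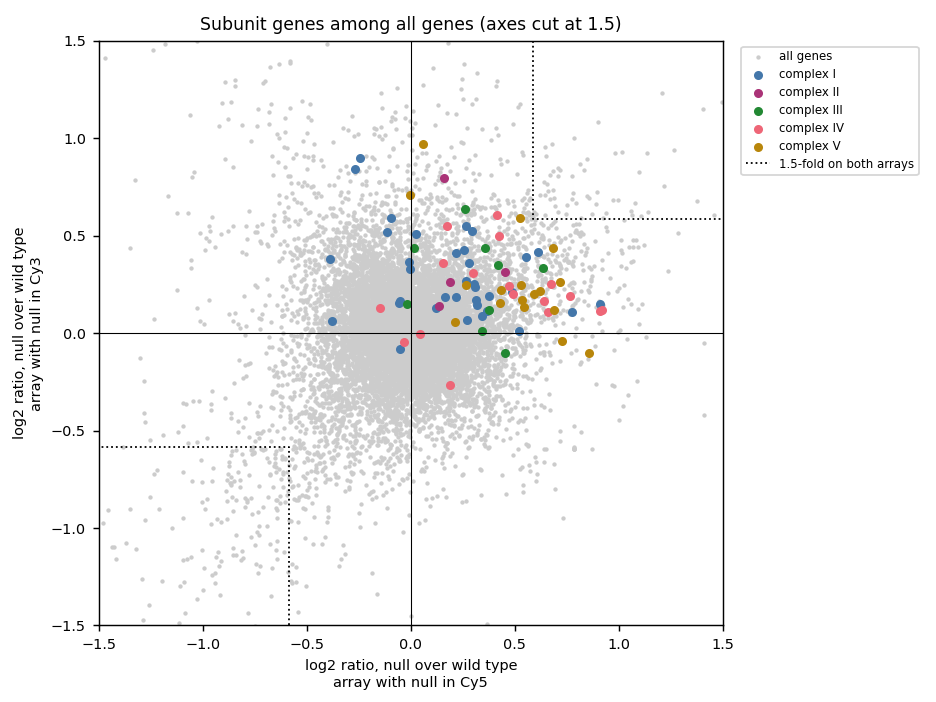
Log2 ratio of null over wild type on the array with null in Cy5 (horizontal) against the array with null in Cy3 (vertical). The 16504 genes are in grey and the 82 subunit genes are coloured by complex. Both axes are cut at 1.5 in log2 on either side of 0, and genes beyond the cut are not drawn. All subunit genes lie within the axes, 62 of them above 0 on both axes, and none lies inside the dotted corners that mark 1.5-fold on both arrays.

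Promoters of these genes were read because the members lay above 0 together. The table used here, from RefSeq (GRCm38.p6), held 67 of the 82 members. It did not match Atp5a1, Atp5mpl, Cox4i1, Cox4i2, Cox6a2, Cox6c, Cyc1, Ndufa2, Ndufa4l2, Ndufb9, Ndufs1, Sdhc, Uqcrb, Uqcrc2 and Uqcrq. Motifs of factors known from mitochondrial genes were searched on both strands in the 250 bases before the annotated start. The motif GCGCA, any base, then GCGC, of the type bound by nuclear respiratory factor NRF1, was found in 13 of the 67 members (19.4%) and in 7.02% of the 13200 array genes with a promoter in the table. The motif CCGGAAG, of the type bound by ETS factors such as GABP, was found in 11 members (16.4%) and in 11.6% of array genes. AANATGGC, of the type bound by YY1, was found in 6 members (8.96%) and in 4.57% of array genes, and TATAA in 9 members (13.4%) and in 21.0% of array genes. Over all 32851 promoters of the table, the shares were 3.74%, 6.91%, 3.91% and 22.8% in the same order.

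By the mean of both arrays, members with the NRF1-type motif had a median of 0.32 and those without it had one of 0.35. The order turned between the arrays, at 0.28 and 0.31 with null in Cy5 and 0.25 and 0.24 with null in Cy3. For the ETS-type motif the medians were 0.35 with it and 0.32 without it. They were 0.28 and 0.34 for the YY1-type motif and 0.23 and 0.34 for TATAA. These differences were not tested. The promoters below are those of the 2 members with the highest means and of 2 members chosen for their motifs. Atp5g2, with 1 of the 2 highest means, holds the NRF1-type motif; Atp5g1, the other, holds none of the 4 motifs. Cox6a1 and Sdhd, with lower means of 0.35 and 0.38, are 2 of the 3 members that hold both the NRF1-type and the ETS-type motif. Capitals mark these motifs on either strand, and each sequence is the strand of the gene.
Atp5g2 is at chr15:102671048-102671297, minus strand.
Atp5g2: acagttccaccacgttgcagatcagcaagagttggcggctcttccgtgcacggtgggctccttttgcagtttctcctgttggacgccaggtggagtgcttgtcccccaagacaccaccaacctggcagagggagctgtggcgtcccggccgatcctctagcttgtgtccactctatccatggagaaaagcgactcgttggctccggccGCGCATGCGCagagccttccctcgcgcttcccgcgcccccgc
Atp5g1 is at chr11:96075632-96075881, minus strand.
Atp5g1: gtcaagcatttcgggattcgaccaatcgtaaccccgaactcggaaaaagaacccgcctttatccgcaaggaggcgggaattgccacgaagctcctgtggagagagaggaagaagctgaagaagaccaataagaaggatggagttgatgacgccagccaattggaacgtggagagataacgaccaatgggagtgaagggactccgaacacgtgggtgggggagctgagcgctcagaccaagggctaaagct
Cox6a1 is at chr5:115348959-115349208, minus strand.
Cox6a1: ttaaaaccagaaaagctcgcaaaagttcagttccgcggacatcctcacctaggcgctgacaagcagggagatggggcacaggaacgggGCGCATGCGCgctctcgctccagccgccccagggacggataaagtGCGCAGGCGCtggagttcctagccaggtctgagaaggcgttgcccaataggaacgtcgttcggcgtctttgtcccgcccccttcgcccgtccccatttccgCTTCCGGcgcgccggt
Sdhd is at chr9:50603850-50604099, minus strand.
Sdhd: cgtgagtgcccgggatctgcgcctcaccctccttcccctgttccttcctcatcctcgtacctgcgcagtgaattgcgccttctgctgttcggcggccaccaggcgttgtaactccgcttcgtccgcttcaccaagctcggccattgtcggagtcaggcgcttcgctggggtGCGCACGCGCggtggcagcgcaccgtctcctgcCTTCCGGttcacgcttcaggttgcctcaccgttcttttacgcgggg
In Atp5g2 the motif begins 42 bases before the start. In Cox6a1 the NRF1-type motif occurs at 162 and at 117 bases before the start and the ETS-type motif at 16 bases. In Sdhd they lie 79 and 46 bases before the start. A match is a description of letters, and binding was not measured.

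Genes that build or feed the complexes were described from lists of known function. Of 9 measured complex I assembly factors, 7 lay above 0 on both arrays (median 0.19), while of 28 assembly factors of complexes II to V, 11 lay above and 6 below (median 0.03, with 0.06 and -0.0016 on the arrays). Of 16 genes listed as cytochrome c and carriers of the inner and outer membrane, 7 lay above and 1 below (median 0.16). This list also holds the electron transfer flavoprotein genes Etfa and Etfb and the dehydrogenase gene Etfdh. Cycs, the cytochrome c gene, stood at 0.63 and 0.40, and Slc25a5, an ATP/ADP carrier, at 0.59 and 0.18. Of 17 genes in the citric acid cycle list, which also holds the pyruvate enzyme genes Pdha1, Pdhb, Dlat and Pcx, 8 lay above and none below (median 0.22). Fh1, fumarate hydratase, was the only one to pass the rule, at 0.59 and 0.60. Of 19 import and chaperone genes, 16 lay above and none below (median 0.27), and Hspe1, a mitochondrial chaperonin (0.94 and 0.62), and Timm8a1, an import chaperone (0.77 and 0.69), passed the rule. The 7 antioxidant genes had a median of 0.07, with 5 above 0 on both arrays.

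Of 19 regulators of mitochondrial biogenesis, 7 were above 0 and 4 below it on both arrays (median 0.02, with -0.03 and 0.06 on the arrays). Myc, a growth factor-induced transcription factor, was the only one to pass the rule, at 1.26 and 0.94. Pprc1, a coactivator of the PGC-1 family, stood at 0.40 and 0.32. Its relatives Ppargc1a (0.08 and 0.13) and Ppargc1b (0.07 and 0.12) stood nearer to 0. Nrf1 stood at -0.12 and 0.09, Gabpa at -0.07 and 0.17, Tfam, which packs and transcribes mitochondrial DNA, at 0.05 and 0.14, and Esrra at -0.20 and -0.37. Tfb1m, a mitochondrial rRNA methyltransferase, stood at -0.35 and -0.16, Mterf3, a mitochondrial transcription termination family gene, at -0.10 and -0.28, and Yy1 at -0.17 and -0.19. With Esrra, these are the 4 regulators below 0 on both arrays.

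Other large complexes also lay above 0. Of 76 mitochondrial ribosomal protein genes, 49 (64.5%) lay above 0 on both arrays, with a median of 0.19 (0.12 and 0.23 on the arrays). Of 72 cytosolic ribosomal protein genes, 51 (70.8%) did, with a median of 0.43 (0.64 and 0.15). The glycolysis list also holds the transporter genes Slc2a1, Slc2a3 and Slc16a1. Its 16 measured genes had 7 members above 0 and 2 below it on both arrays (median 0.11). Of these, Tpi1 (0.68 and 0.97) and Slc16a1 (0.97 and 0.68) passed the rule as higher, and Ldhb (-0.85 and -1.14) as lower. The shares over all genes were 0.412% and 1.11%. The displacement above 0 was therefore shared with the ribosomal genes and is not particular to the subunits. Differences between these lists could not be tested. Over all genes, 52.3% were higher with null in Cy5 than with null in Cy3. Of the cytosolic ribosomal protein genes 58 of 72 (80.6%) were, and of the complex V genes 14 of 17 (82.4%). Complex IV (11 of 17, 64.7%), complex I (16 of 35, 45.7%) and the mitochondrial ribosomal genes (31 of 76, 40.8%) stood nearer to that share.

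**Figure D4:**
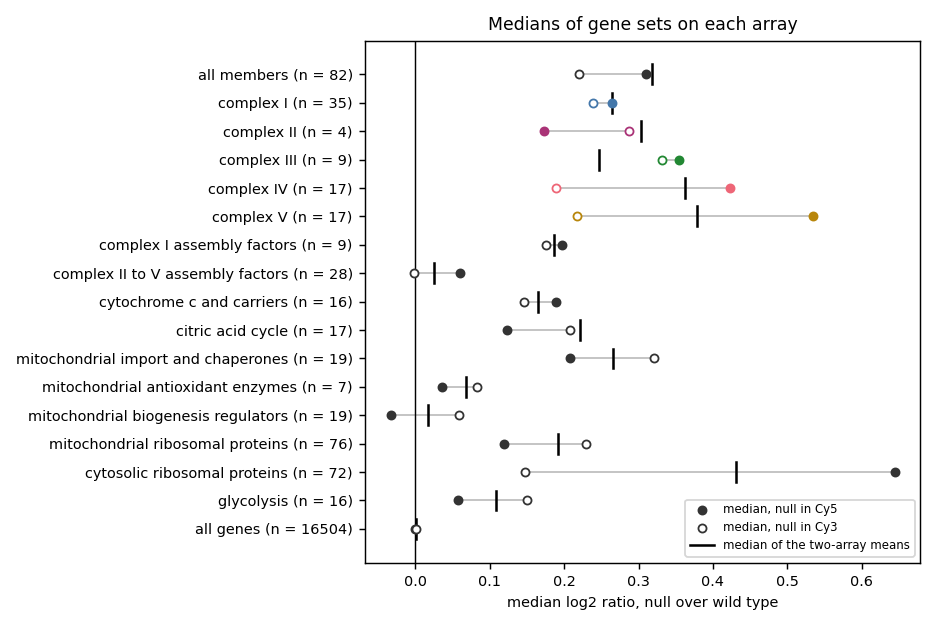
Median log2 ratio of null over wild type for the subunit genes, each complex, related gene lists and all genes. Filled points are the median with null in Cy5, open points with null in Cy3, and black ticks the median of each gene's mean over both arrays; n is the number of measured genes. The subunit genes lie at 0.31 and 0.22, the cytosolic ribosomal protein genes at 0.64 and 0.15, and all genes at 0.

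Markers of cell types also differed between the 2 pools. For comparison, the rule called 0.412% of all genes higher and 1.11% lower. Of all genes, 25.0% lay above and 25.0% below 0 on both arrays. Of 16 thymocyte markers, 1 lay above and 10 below 0 on both arrays (median -0.28), and Cd4, Rag1 and Satb1 passed the rule as lower. The marker above 0 was Dntt (0.56 and 0.05). Another 5 lay on opposite sides, namely Cd3e (0.23 and -0.23), Cd8a (0.20 and -0.35), Ptcra, Lat and Zap70. All 7 neutrophil markers lay above 0 on both arrays (median 0.69), and Ngp, Camp, S100a8 and S100a9 passed the rule as higher. Ltf (0.17 and 0.03), Elane (0.05 and 0.13) and Mpo (0.32 and 0.16) stood nearer to 0. No marker lay above 0 on both arrays among 7 of B cells (median -0.34), 12 of macrophages and dendritic cells (median -0.62, with -0.45 and -0.32 on the arrays) and 8 of thymic epithelium (median -0.13). Of these, Cd79a, Fcrla and Jchain in the B cell list and Epcam and Krt5 in the epithelium list passed the rule as lower. So did Cd74, Ctss and H2-Eb1 in the macrophage and dendritic cell list. A gene's list does not show which cells gave its signal. In the macrophage and dendritic cell list and the epithelium list, 10 of 12 and 6 of 8 markers lay below 0 on both arrays. Adgre1 (0.19 and -0.07), Fcgr3 (-0.22 and 0.21), Foxn1 (-0.02 and 0.10) and Psmb11 (0.28 and -0.16) lay on opposite sides. C1qb (-0.09 and -0.01) was near 0. Of 9 fibroblast and endothelium markers, 2 lay above and 6 below (median -0.11), with Postn passing the rule as lower, and of 5 erythroid markers, 1 above and 2 below (median 0.05, though -0.03 and -0.15 on the single arrays). The part of cell composition in the subunit genes' values was not tested.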

How the data were processed

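Thymocyte RNA of 3 mice per genotype was pooled, amplified, labelled and hybridised to 2 Agilent mouse arrays of opposite dye orientation, and scans were processed with Agilent Feature Extraction 7.1 at default settings, per the labels and the submitters' processing notes. The authors deposited 1 ratio per feature and array. These deposited values were read as log10, the convention of that software, and converted to log2; base and centring are not stated. The column medians were -0.00141 and 0.00112. All 82 zeros of the second column carry a minus sign and none of the 80 of the first do, so the second column was taken as already turned to null over wild type.

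Of 22393 features, 18218 have 1 symbol, 16 several and 4159 none. Symbols were updated by gene ID for 18175 features (RefSeq, GRCm38.p6), and features of a gene were averaged. No source used here gives the array's genome build. The targeted gene is not reported here. Calls needed 1.5-fold on both arrays. With 1 pool per genotype, the 2 arrays give technical spread only, and the precision of the genotype difference is unknown. Members and lists were chosen with earlier results of these data known. Named members are the 3 highest and 3 lowest of each complex, those with arrays 1.5-fold apart, and paralogs with tissue forms; others and the motifs were picked after their values were seen. Alternatives concerned the sign of the second column, single arrays, centring, features per gene, log base, membership and the size rule. Python 3.11.15, numpy 2.4.6, pandas 2.3.3 and matplotlib 3.10.9 were used.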

Additional observations from a re-analysis of the deposited data

How the results depend on the processing

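No paired analysis was possible because there is 1 pool per genotype, hybridised to both arrays. Taking members by current symbol gave identical counts and medians. Centring and the feature with the largest change moved no count of members by over 1.5 times and no median of the members or complexes by over 1 SD between arrays; centred, 63 members lay above 0 on both arrays, and with the largest feature the median member was 0.324. With both columns read as raw Cy5 over Cy3, 5 members lay above and 13 below 0 on both columns. Under this reading, 25.0% of all genes lay above and 25.1% below 0 on both columns. Both shares were smaller among members than among all genes, so the 13 members are no excess below 0. The median member was then 0.0293, and complexes I to V were at -0.0042, -0.0200, 0.0348, 0.12 and 0.14. Every statement on direction therefore rests on the second column being turned. With 1 array left out, 67 to 75 members lay above 0, 7 to 15 below, 9 to 17 were called higher and 0 lower. The median member then ranged from 0.22 to 0.31, complex I from 0.24 to 0.26, II from 0.17 to 0.29, III from 0.33 to 0.35, IV from 0.19 to 0.42 and V from 0.22 to 0.53. Read as log2, the medians were 0.0956 for all members and 0.0795, 0.0913, 0.0744, 0.109 and 0.114 for complexes I to V; read as natural log, 0.14 for all members and 0.11, 0.13, 0.11 and 0.16 for complexes I to IV. Without muscle and testis isoforms 1 member lay below 0 on both arrays, and at the lower limit of 0.32 in log2, 9 members were higher. Of 46 named members, Atp5pb alone moved by over 1 SD with the feature of largest change (0.35), and 8 and 7 changed sign on the array with null in Cy5 or in Cy3 alone, and 21 with both columns raw. Signal over background is unknown.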
